A study of Mus musculus with 6 samples.

Results

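The TGF-β and BMP genes of the plate were the ligand genes Tgfb1, Tgfb2 and Bmp7, the receptor genes Tgfbr1 and Tgfbr2, and Smad3. They were chosen by symbol, as 6 of the 84 genes of interest on a custom qRT-PCR plate, and all 6 gave a Ct in every animal. The RNA came from back skin taken at day+70 after irradiation, of 3 mice without CpG-proBs (GVHD controls) and 3 that had received them (CpG-proB recipients). All 6 animals were female Balb/c mice, given 5.8 Gy of irradiation (day 0) at the age of 10 weeks and grafted on day+1 with 5000000 bone marrow cells depleted of T and B cells and 1000000 splenocytes of C57BL/6J donors, a mismatched graft whose T cells cause graft-versus-host disease (GVHD). Only the recipients had also been given 750000 CpG-proBs, B-cell progenitors from bone marrow cultured with the TLR-9 agonist CpG. The labels do not give the day on which these recipients had their CpG-proBs. No skin of ungrafted mice was on the plate, so the levels in healthy skin are not known here. The animals keep the numbers of the labels, 1 to 3 for controls and 4 to 6 for recipients.

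TGF-β is secreted in a latent form and, once released, binds the type II receptor TGFBR2, which recruits and phosphorylates the type I receptor TGFBR1. The type I receptor then phosphorylates SMAD2 and SMAD3, which enter the nucleus with SMAD4 and activate genes of the extracellular matrix, and this pathway is a known driver of dermal fibrosis in sclerodermatous GVHD. TGF-β1 is the isoform that leukocytes and platelets mainly supply, TGF-β2 is known from epithelial and stromal cells, and BMP7 is a ligand of the related BMP branch, which signals through other receptors and SMADs and opposes TGF-β in several tissues. The comparison asks whether these components differed between GVHD skin with and without CpG-proBs.

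Each well gave a threshold cycle (Ct), which falls by 1 for each doubling of template at full amplification efficiency. The 6 genes had Ct values from 22.11 to 27.26, and each Ct was at least 1.18 cycles earlier than the earlier of the 2 negative-control wells of the same animal. The smallest margin was that of Tgfbr2 in control 1. The level of a gene was computed as −ΔCt, the mean Ct of 6 house-keeping genes (Ppia, Tbp, B2m, Rplp0, Tfrc and Gusb) minus the Ct of the gene, a log2 scale on which a higher value means more RNA. The mean Ct of these 6 genes ranged from 21.3 to 23.0 and differed by 0.293 cycles between the groups (exact permutation test, two-sided, p = 0.6). Another reference moves every gene alike, so the comparisons of 2 genes within 1 animal, in which the reference cancels, stand beside the levels. In whole skin, fewer cells of a type and less RNA per cell cannot be told apart.

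Tgfbr2 was the 1 gene of the 6 that passed the threshold of the study, a fold change of at least 1.4 with an unadjusted p of at most 0.05, and it was higher in CpG-proB recipients. Over the 82 genes that could be tested, 17.1% passed in either direction and 12.2% with more RNA in recipients, so 1 of 6 was a share near that of the plate. Tgfb2 and Tgfbr2 were higher in every recipient than in any control, as were 15.9% of the 82 genes, and groups without overlap in either direction made up 20.7%. The log2 fold change was above 0 for Tgfb2, Tgfbr1, Tgfbr2 and Smad3 and below 0 for Tgfb1 and Bmp7, with a median of 0.59 against 0.11 over the 82 genes. None of the 6 had an adjusted p of at most 0.05 from limma with Benjamini-Hochberg adjustment, as 2.44% of the 82 genes did.

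**Figure D1:**
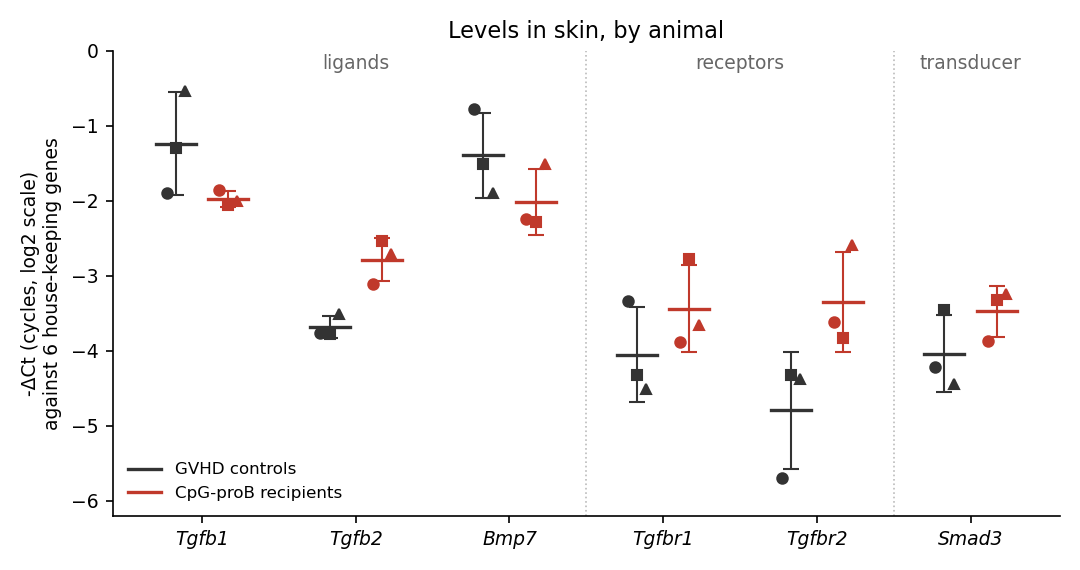
Level (−ΔCt, in cycles on a log2 scale, against 6 house-keeping genes) of the 6 genes in the 3 control animals (black) and the 3 recipients (red). Each point is 1 animal, with circle, square and triangle for animals 1, 2 and 3 or 4, 5 and 6, horizontal lines are means and bars are SD (n = 3). The groups are apart for Tgfb2 and Tgfbr2 and overlap for the other genes.

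The plate measured Tgfb1, on chromosome 7, by primers in exons 6 and 7 with a product of 127 bp. Its −ΔCt was −1.90, −1.29 and −0.53 in controls 1, 2 and 3 and −1.86, −2.06 and −1.998 in recipients 4, 5 and 6. The recipients lay close together at the level of control 1, whereas controls 2 and 3 were above all of them. The log2 fold change was −0.73 (standard error 0.51, 95% interval −1.82 to 0.36, adjusted p = 0.432 from limma), and the groups overlapped (exact permutation test, p = 0.2). The SD of the controls was 0.69 and that of the recipients 0.10 (n = 3 each). Without control 3 the log2 fold change was −0.38.

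For Tgfb2, on chromosome 1, the primers lay in exons 3 and 4 and gave a product of 128 bp. Controls 1, 2 and 3 had a −ΔCt of −3.76, −3.77 and −3.51, and recipients 4, 5 and 6 had −3.11, −2.54 and −2.71. All recipients were above all controls, with a gap of 0.40 between the highest control and the lowest recipient. The log2 fold change of 0.90 (standard error 0.48, 95% interval −0.13 to 1.92, adjusted p = 0.396 from limma) was a level 1.86 times that of controls and missed the threshold, and the exact permutation test gave p = 0.1, the smallest that 3 animals against 3 allow. Tgfb2 varied little, with an SD of 0.15 in controls and 0.29 in recipients, and it passed when each gene kept its own variance instead of one drawn towards that of all genes.

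Bmp7, on chromosome 2, was measured with both primers in exon 2, so that the product of 126 bp does not span an intron. Its −ΔCt was −0.77, −1.51 and −1.89 in controls and −2.25, −2.28 and −1.51 in recipients 4, 5 and 6. Recipient 6 was at the level of control 2, and the other recipients were below every control. The log2 fold change of −0.62 (standard error 0.52, 95% interval −1.71 to 0.47, adjusted p = 0.547 from limma) did not pass, and the groups overlapped (p = 0.3 by the exact permutation test). With 1 animal left out it ran from −0.87 to −0.31, the latter without control 1.

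Within each animal, the level of Tgfb1 was set against that of Tgfb2 as the difference of their −ΔCt, which equals the Ct of Tgfb2 minus that of Tgfb1 and needs no house-keeping gene. Tgfb1 was the higher of the 2 in 6 of 6 animals. It was higher by 1.86, 2.48 and 2.98 cycles in controls 1, 2 and 3 and by 1.25, 0.48 and 0.71 cycles in recipients 4, 5 and 6, so that the largest difference in a recipient was 0.61 below the smallest in a control. The controls had a mean difference of 2.44 ± 0.56 and the recipients one of 0.81 ± 0.40 (SD, n = 3 each), which at full efficiency is a ratio of Tgfb1 to Tgfb2 of 5.43 in controls and 1.76 in recipients. The change of −1.63 had an exact permutation p of 0.1, the smallest possible, and an adjusted p of 0.5 over the 5 gene pairs compared in this way. Among all 3321 pairs of the 82 genes, the difference within an animal did not overlap between the groups in 26.1%. With each animal left out in turn the change stayed between −1.92 and −1.36. How much of it lies in Tgfb1 and how much in Tgfb2 depends on the reference.

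The type II receptor gene Tgfbr2, on chromosome 9, was measured by primers in exons 4 and 5 with a product of 95 bp. Its −ΔCt was −5.69, −4.32 and −4.37 in controls 1, 2 and 3 and −3.62, −3.83 and −2.59 in recipients 4, 5 and 6. All recipients were above all controls, with control 1 the lowest and recipient 6 the highest animal. The Ct of control 1, 27.03, was 1.18 cycles earlier than the earlier negative-control well of that animal. This was the smallest such margin of the 6 genes. Tgfbr2 rose by a log2 fold change of 1.45 (standard error 0.56, 95% interval 0.27 to 2.63, adjusted p = 0.183 from limma), a level 2.73 times that of controls, and the increase was the 7th largest of the 82 genes. The exact permutation test gave p = 0.1. Without control 1 the log2 fold change was 1.00 and without recipient 6 it was 1.07, and neither value passed the threshold of the study, nor did Tgfbr2 pass when each gene kept its own variance.

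Tgfbr1, the type I receptor gene on chromosome 4, had primers in exons 7 and 8 and a product of 133 bp. Its −ΔCt was −3.33, −4.32 and −4.51 in controls and −3.88, −2.78 and −3.66 in recipients 4, 5 and 6. Control 1 lay among the recipients and the other 2 controls below them. The log2 fold change of 0.62 (standard error 0.53, 95% interval −0.51 to 1.74, adjusted p = 0.563 from limma) missed the threshold (exact permutation test, p = 0.3). It was 0.29 without recipient 5 and 0.98 without control 1.

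Tgfbr1 minus Tgfbr2 was 2.36, 0.00 and −0.14 in controls 1, 2 and 3 and −0.26, 1.05 and −1.07 in recipients 4, 5 and 6. Control 1 thus had the most Tgfbr1 and the least Tgfbr2 of the controls, and recipient 5 had the most Tgfbr1 and the least Tgfbr2 of the recipients. The difference between the groups of −0.83 was smaller than the SD of 1.405 in controls and of 1.07 in recipients (exact permutation test, p = 0.5, adjusted p = 0.833 over the 5 pairs), and it was −0.02 without control 1 and −1.41 without recipient 5. The mean level of the 2 receptor genes was −4.51, −4.32 and −4.44 in controls and −3.75, −3.31 and −3.12 in recipients.

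Ligands were compared with receptors in each animal as the mean level of Tgfb1 and Tgfb2 minus the mean level of Tgfbr1 and Tgfbr2. The difference was 1.68, 1.79 and 2.42 cycles in controls 1, 2 and 3 and 1.27, 1.01 and 0.77 in recipients 4, 5 and 6. It was above 0 in 6 of 6 animals and smaller in every recipient than in any control, with means of 1.96 ± 0.40 (SD, n = 3) and 1.01 ± 0.25 (SD, n = 3). Of the pairs of single genes on the plate, 26.1% had no overlap, and the share for means of genes was not computed. The change of −0.95 lay between −1.09 and −0.72 with each animal left out in turn. The difference is given as a description without a test. Against the 6 house-keeping genes, the mean level of the 2 ligand genes changed by 0.08 with overlap between the groups. That of the 2 receptor genes changed by 1.03 without overlap.

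When Tgfb1 and Tgfb2 were each set against Tgfbr1 and Tgfbr2, only Tgfb1 minus Tgfbr2 did not overlap between the groups. On the plate, 26.1% of all pairs did not overlap. The 2 pairs with Bmp7, whose product signals through other receptors, were added after the values were seen. Both were without overlap, so they are not counted against that share. Tgfb1 minus Tgfbr2 went from 3.79, 3.03 and 3.84 in controls to 1.76, 1.77 and 0.59 in recipients, a change of −2.18 without overlap. Bmp7 minus Tgfbr2 went from 4.92, 2.81 and 2.48 to 1.37, 1.55 and 1.08, a change of −2.07 without overlap. Bmp7 minus Tgfbr1 went from 2.56, 2.81 and 2.62 to 1.63, 0.50 and 2.15, a change of −1.24 without overlap. Tgfb1 minus Tgfbr1 changed by −1.35, Tgfb2 minus Tgfbr2 by −0.55 and Tgfb2 minus Tgfbr1 by 0.28, each with overlap between the groups. These pairs share genes, so they are not independent of each other, and they are given without a test. Among the other pairs, Bmp7 minus Tgfb1 changed by 0.11 (exact permutation test, p = 1, adjusted p = 1 over the 5 pairs), with an SD of 1.25 in controls and 0.47 in recipients. Tgfb1 and Bmp7, both with a log2 fold change below 0, were thus not in a fixed ratio across animals, as Bmp7 was 1.13 cycles above Tgfb1 in control 1 and 1.36 below it in control 3.

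**Figure D2:**
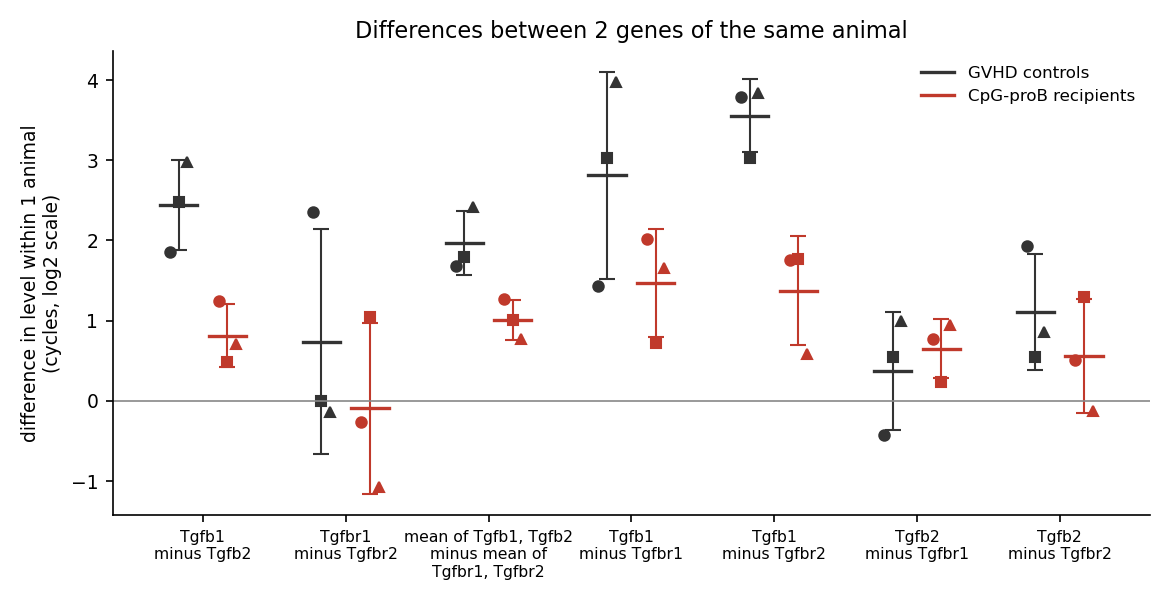
Difference in level between 2 genes of the same animal (cycles, log2 scale), with controls in black and recipients in red. Each point is 1 animal, with circle, square and triangle for animals 1, 2 and 3 or 4, 5 and 6, horizontal lines are means and bars are SD (n = 3). The groups are apart for Tgfb1 minus Tgfb2, for Tgfb1 minus Tgfbr2 and for the mean of ligands minus that of receptors.

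The sequences before the annotated starts of Tgfb2 and Tgfbr2, higher in every recipient, and of Tgfb1, the other gene of the compared pair, are shown (RefSeq, GRCm38.p6, each 250 bases up to the start, 5′ to 3′ on the strand of the gene). Capitals mark every match on either strand to TATAAA (the TATA box), GGGCGG (the GC box that Sp1 binds), CAGAC (a core that SMAD3 binds) and CACGTG (an E-box). Tgfb1 lies at chr7:25686752-25687001 on the + strand, Tgfb2 at chr1:186705990-186706239 on the - strand and Tgfbr2 at chr9:116175364-116175613 on the - strand.
Tgfb1: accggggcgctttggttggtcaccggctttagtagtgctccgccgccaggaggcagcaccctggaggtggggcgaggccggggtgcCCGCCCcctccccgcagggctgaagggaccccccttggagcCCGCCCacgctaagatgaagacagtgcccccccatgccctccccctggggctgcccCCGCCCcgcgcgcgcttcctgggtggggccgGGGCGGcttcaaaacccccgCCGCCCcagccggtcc
Tgfb2: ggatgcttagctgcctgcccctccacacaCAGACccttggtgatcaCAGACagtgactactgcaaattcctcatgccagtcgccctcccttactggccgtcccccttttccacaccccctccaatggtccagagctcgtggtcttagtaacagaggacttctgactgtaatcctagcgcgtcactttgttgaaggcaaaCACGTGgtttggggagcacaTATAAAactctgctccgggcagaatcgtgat
Tgfbr2: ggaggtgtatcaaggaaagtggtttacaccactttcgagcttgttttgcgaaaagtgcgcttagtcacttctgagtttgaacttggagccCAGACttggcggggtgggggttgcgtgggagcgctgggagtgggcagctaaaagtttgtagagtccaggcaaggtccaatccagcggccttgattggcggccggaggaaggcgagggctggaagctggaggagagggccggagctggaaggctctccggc
The Tgfb1 window held 5 matches to GGGCGG and none to the other motifs, and 75.2% of its bases were G or C. The Tgfb2 window held 1 TATAAA, starting 31 bases before the annotated start, 1 CACGTG and 2 CAGAC, with 53.6% G or C. In Tgfbr2 there was 1 CAGAC and none of the other motifs, with 58.4% G or C. Of the 32851 windows of this length in the RefSeq table, 32.7% held GGGCGG, 42.2% CAGAC, 12.4% TATAAA and 6.02% CACGTG, and the median share of G or C was 52.4%. A match is a run of letters and was not tested for binding. The table held windows for 5 of the 6 genes.

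Smad3, on chromosome 9, encodes a transducer that the type I receptor activates, and was measured with a forward primer over the junction of exons 5 and 6 and a reverse primer in exon 6 (113 bp). Its −ΔCt was −4.22, −3.46 and −4.44 in controls and −3.87, −3.32 and −3.24 in recipients 4, 5 and 6. Recipient 4 fell below control 2, and the other recipients were above every control. The log2 fold change was 0.57 (standard error 0.51, 95% interval −0.50 to 1.64, adjusted p = 0.573 from limma), and did not pass, with overlap between the groups (p = 0.2 by the exact permutation test). With 1 animal left out it ran from 0.37 to 0.86. Set against the receptors in the same animal, Smad3 minus Tgfbr2 changed by −0.88 (exact permutation test, p = 0.2, adjusted p = 0.5 over the 5 pairs) and Smad3 minus Tgfbr1 by −0.05 (exact permutation test, p = 0.9, adjusted p = 1 over the 5 pairs). The change in Smad3 minus Tgfbr2 was −0.53 without control 1 and −1.30 without control 3. The change in Smad3 minus Tgfbr1 was less than the SD of 0.88 in controls and 0.48 in recipients.

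The plate held 5 other genes of the pathway, and 0 of 5 passed the threshold of the study, which 17.1% of the 82 genes passed, with unadjusted p from 0.376 to 0.983 in limma. Their median log2 fold change was −0.28 against 0.11 over all 82 genes. Smad2, for the other receptor-activated transducer of TGF-β, had a log2 fold change of −0.01 (95% interval −1.06 to 1.04). For the inhibitory Smads, which TGF-β and BMP signals induce and which block the receptors, the values were −0.47 for Smad7 (95% interval −1.56 to 0.62) and −0.39 for Smad6 (95% interval −1.46 to 0.67). Tgif1, whose product represses SMAD-dependent transcription, was at −0.28. Grem1, which encodes the secreted BMP antagonist gremlin 1, was at 0.41 and varied most between recipients, from −3.22 in recipient 4 to −1.53 in recipient 6. The groups overlapped for all 5 genes.

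Of a list of 7 genes that TGF-β is known to raise in fibroblasts (Ctgf, Col1a2, Col3a1, Acta2, Timp1, Serpinh1 and Thbs1), 0 passed with more and 1 with less RNA in recipients. On the plate, 4.88% of the 82 genes passed with less RNA, 12.2% with more and 17.1% in either direction, so 1 of 7 was near the share of the plate. This 1 gene was Col3a1, for the α1 chain of type III collagen, which fell by 1.45 on the log2 scale (standard error 0.54, adjusted p = 0.18 from limma), a call lost with all 8 house-keeping genes, with Ppia, Tbp and Actb, without control 1 and without recipient 6. Ctgf, for connective tissue growth factor, had a −ΔCt of −3.24, −3.19 and −2.94 in controls and −2.16, −2.60 and −2.31 in recipients. Every recipient was above every control, as for Tgfb2 and Tgfbr2, with a log2 fold change of 0.77 that did not pass. Serpinh1, a collagen chaperone gene, and Timp1, a metalloproteinase inhibitor gene, were at −1.02 and −0.99 with overlap between the groups, and Timp1 was at or past a negative-control well of the same animal in 3 of 6 animals. The list thus held values on both sides of 0, with a median of 0.16 against 0.11 over the 82 genes.

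**Figure D3:**
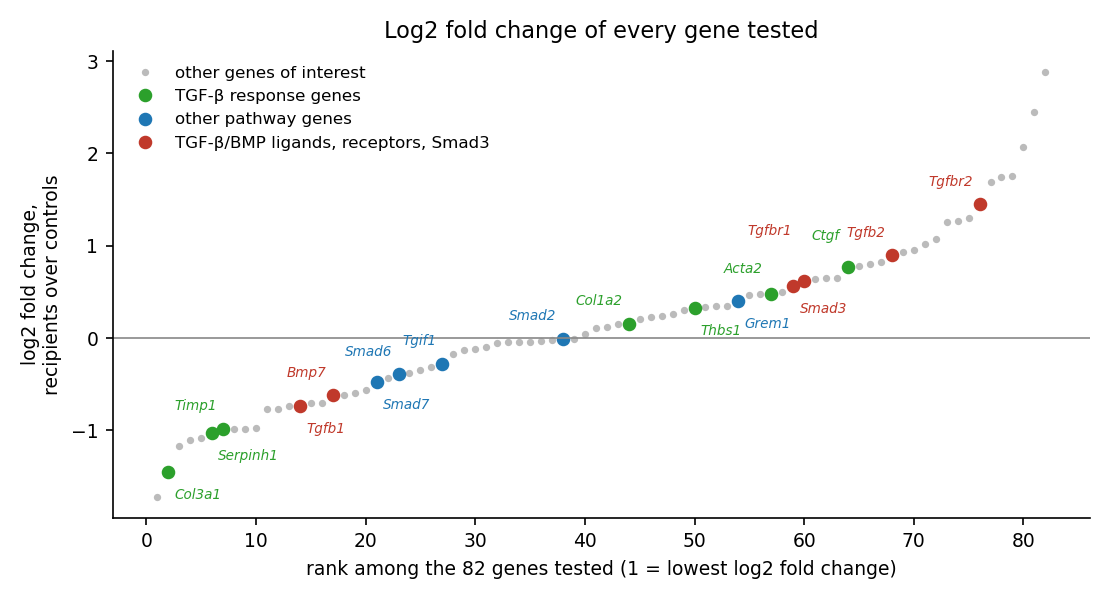
Log2 fold change of recipients over controls (vertical axis) for the 82 genes tested, ordered from the lowest to the highest (horizontal axis, rank). The TGF-β and BMP ligand, receptor and Smad3 genes are in red, the other pathway genes in blue and the response genes in green. Tgfbr2 has the highest value of the marked genes at 1.45 and Col3a1 the lowest at −1.45.

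Markers of infiltrating cells did not move as 1 group with Tgfbr2. Of 3 macrophage genes, Csf1r passed with more RNA in recipients (log2 fold change 1.30, adjusted p = 0.183 from limma), whereas Adgre1 was at −0.60 and Cd68 at −0.56, and the summed level of the 3 genes (as 2 to the power of −ΔCt) was 0.103 to 0.225 over the controls and 0.133 to 0.186 over the recipients. Of 4 genes of activated T and NK cells (Ifng, Gzmb, Eomes and Tbx21), 0 passed, with unadjusted p from 0.315 to 0.85 in limma and summed levels of 0.0429 to 0.237 in controls against 0.0764 to 0.145 in recipients. Tbx21 was at or past a negative-control well of the same animal in 6 of 6 animals. The fibroblast genes Col1a2 and Col3a1 were present in all animals, with summed levels of 0.607 to 0.766 in controls against 0.336 to 0.84 in recipients. The plate held no keratinocyte marker, so the share of epidermis in each sample was not measured, and the part of cell composition in the result for Tgfbr2 was not tested.

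For each of the 6 genes, the other genes most like it were named by the smallest SD over the 6 animals of their Ct difference from it, among the 81 other genes tested. For Tgfb1 these were Cd68 (SD 0.366 cycles) and Adgre1 (0.459), both macrophage genes, against a median of 0.889 over the 81 genes. Csf1r, the other gene of the macrophage list, changed the other way from Tgfb1 (log2 fold change 1.30 against −0.73). The gene nearest to Tgfb2 was the integrin gene Itgb1 (0.201), against a median of 0.779. The nearest to Tgfbr2 were this macrophage gene Csf1r (0.406) and the growth factor gene Pdgfb (0.49), with a median of 1.12. Bmp7 was nearest to Smad6 (0.295) and Il13ra2 (0.348), whose mean Ct of 30.45 was past the highest negative-control Ct of 30.13 and so is no measured level. Tgfbr1 was nearest to Tnf (0.366) and Mmp14 (0.383), and Smad3 to Acta2 (0.342) and Thbs1 (0.417). None of the 6 had another of the 6 among its nearest 2 genes. The ligand Tgfb1 and the receptor Tgfbr2 were far apart in this measure, with an SD of 1.30. These values describe 6 animals that include the group difference.

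By mean −ΔCt over the 6 animals the order was Tgfb1 (−1.61), Bmp7 (−1.70), Tgfb2 (−3.23), Tgfbr1 (−3.75), Smad3 (−3.76) and Tgfbr2 (−4.07). In recipients alone Tgfbr2 (−3.35) came before Tgfbr1 (−3.44) and Smad3 (−3.48), so the last 3 places differ between the groups. Only the step from Bmp7 to Tgfb2, with a mean of 1.53 cycles and an SD of 0.98 within animals, was larger than its spread and had the same direction in 6 of 6 animals. This step was 2.99, 2.26 and 1.62 in controls and 0.86, 0.26 and 1.20 in recipients, without overlap. The other neighbours did not differ beyond their spread. The amplification efficiency of the assays was not measured here, so the order is one of assay signals.

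The sizes depended on the reference, which shifts all genes by the same amount. With all 8 house-keeping genes the log2 fold change of Tgfbr2 was 1.74 and that of Tgfb2 1.19, and both passed the threshold of the study, as did 12 of the 82 genes. With Ppia, Tbp and Actb it was 2.20 for Tgfbr2, with an adjusted p of 0.0328 in limma, and Tgfb2 (1.65), Tgfbr1 (1.37) and Smad3 (1.32) passed as well, among 25 of 82 genes that passed, all of them higher in recipients. Against the median of the genes of interest Tgfbr2 was at 1.04 and did not pass, whereas Tgfb1 passed as lower in recipients (−1.15). The median over the 82 genes was 0.41, 0.86 and −0.30 with these 3 references, and the distance of a gene from it is the same by construction. Tgfb1 and Bmp7 changed sign with Ppia, Tbp and Actb, to 0.02 and 0.13, while Tgfb2, Tgfbr1, Tgfbr2 and Smad3 stayed above 0 under every reference tried. The difference between Tgfb1 and Tgfb2 within an animal does not depend on it.

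**Figure D4:**
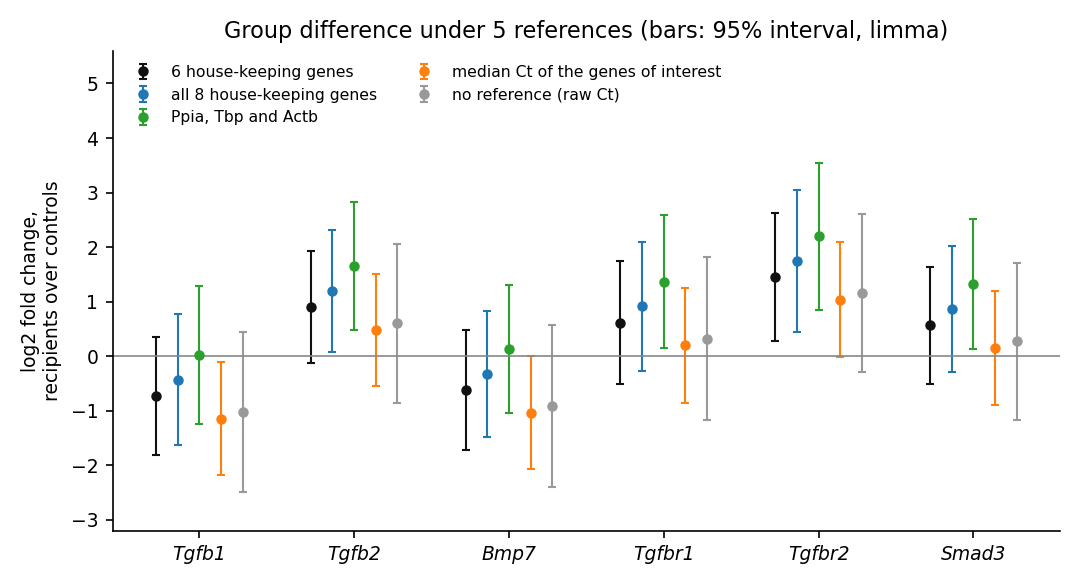
Log2 fold change of recipients over controls (vertical axis) of the 6 genes with 5 references, shown by colour, with bars for the 95% interval from limma (3 animals per group). The log2 fold changes of Tgfbr2 and Tgfb2 stay above 0 with each reference, while their intervals reach below 0 with some of them. Tgfb1 goes from −1.15 against the median of the genes of interest to 0.02 with Ppia, Tbp and Actb.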

How the data were processed

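Skin RNA of the 6 animals (3 per group) was reverse-transcribed with random primers and measured with SYBR Green on a custom plate of 84 genes of interest, 8 house-keeping genes and 4 control wells. The values deposited by the authors are raw Ct, 1 for each well of an animal, and neither the method of calling a Ct nor any repeat of wells is given in the sources used here. The authors also deposited their own comparison of the groups, as ΔΔCt and fold change, which was not used beyond the choice of house-keeping genes given below. Wells were named through the primer table of the study, and all 6 transcript identifiers carry the same symbol in the RefSeq gene table of GRCm38.p6.

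The study normalizes to the geometric mean of 6 house-keeping genes without naming them. The set used here was identified in an earlier analysis of this series from the deposited ΔΔCt values and was not derived again, so results with all 8 are given beside it. The group difference was fitted in R 4.3.3 by limma 3.58.1 (two-sided, with lmFit and then eBayes) over 82 genes, those with a Ct in 2 or more animals of each group, which leaves out Kit and Mmp1a, with Benjamini-Hochberg adjustment over all 82. Single values were compared by the exact permutation test (two-sided, scipy 1.17.1), whose smallest p is 0.1 for 3 animals against 3. The limma p-values rest on 3 animals per group and, except where each gene kept its own variance, on a variance drawn towards that of all genes. The permutation p-values set the group difference against those under every relabelling of the animals. The 6 genes, the lists of pathway, response and marker genes and the 5 pairs were chosen with earlier results of these data known. The text names the 6 genes, all other pathway genes, response genes past the threshold or without overlap, and the nearest 2 genes of each, except that 1 gene of the plate, which stayed in the fit over all genes, is not reported here and was left out of the response list. The limma fit, and no other step, was tested on simulated data, with the same spread for every gene. Alternatives replaced the reference, the variance model, the handling of missing wells, the filter on scarce genes and the animals.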

Additional observations from a re-analysis of the deposited data

How the results depend on the processing

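Across 15 results and 153 alternatives, 125 kept their direction and side of the threshold or, for values without a threshold, stayed within the spread. Tgfbr2 no longer passed against the median of the genes of interest (1.04, so that Tgfb1 was then the 1 gene past the threshold), without a reference (1.16) or when each gene kept its own variance (1.45, unadjusted p = 0.0702 from limma without eBayes, where Tgfb2 took its place), and its values with each animal left out ran from 1.00 to 1.69. Tgfb2 passed with all 8 house-keeping genes (1.19), with Ppia, Tbp and Actb (1.65) and with its own variance (0.90), and ran from 0.77 to 1.06 with an animal left out. Tgfb1 was at 0.02 with Ppia, Tbp and Actb and passed at −1.15 with the median Ct. Bmp7 was at 0.13 with Ppia, Tbp and Actb, with which Tgfbr1 (1.37) and Smad3 (1.32) passed. The count of the 6 genes past the threshold was 2 with all 8 house-keeping genes (12 of all 82), 4 with Ppia, Tbp and Actb (25 of 82, all higher), 0 without a reference (6 of 82) and from 0 to 1 with an animal left out, with 0 without control 1 and without recipient 6. For the response genes the count was 0 with all 8, 2 with Ppia, Tbp and Actb, 3 with the median Ct (22 of 82, with 16 lower), 2 without moderation (15 of 82) and from 0 to 2 with an animal left out, with 0 without recipient 6 and 2 without recipient 5. The change in Bmp7 minus Tgfb1 ran from −0.50 to 0.75 and turned without control 3 (−0.50) and recipient 6 (−0.16), and that in Smad3 minus Tgfbr1 ran from −0.50 to 0.37 and turned without control 2 (0.37) and recipient 5 (0.20). No paired analysis was possible because the labels number the animals from 1 to 6 and the groups share no number. With 3 animals per group the 95% intervals reach about 1 on the log2 scale to either side, and a value of 0.90 (Tgfb2) did not pass.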
